A study of Mus musculus with 12 samples.

Results

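The genes described here break down haem and handle the iron it releases: Hmox1, Hmox2, Blvra and Blvrb of haem breakdown, the haemoglobin scavenger receptor Cd163, the ferritin chains Fth1 and Ftl1, the iron exporter Slc40a1, and Tfrc and Trf of iron uptake. They were chosen by name, and all 10 of 10 were found, each as 1 entry among 23983 in each of 2 tables. RNA was measured by sequencing in cortex and subcortex of mice at postnatal day 0, in 4 groups of 3 libraries. The control mice are labelled wild type (WT). The knockout mice (vKO) are labelled as a vascular knockout of Reck, with the genotype Reck flex2/Δex1 and Tie2Cre, on the same mixed strain label. Tie2Cre acts in endothelial cells and in blood lineages, which include macrophages, so the knockout is not limited to vessels. The labels do not say whether the 3 libraries of a group come from single animals, from which sex they come, or whether cortex and subcortex of 1 number share a brain.

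The deposited tables hold 1 value per gene and group, in FPKM (fragments normalised to transcript length and library size), which the authors computed from the replicates together. With no replicate values in use, levels and ratios carry no SD, the depth of the libraries is unknown, and whether groups overlap cannot be seen. A gene is called, and is written to have risen or fallen, only where the q-value of the authors' deposited table is under 0.05. Ratios are log2((vKO FPKM + 1)/(WT FPKM + 1)), a scale that shrinks the change of genes near or under 1 FPKM, and folds are FPKM ratios with nothing added. In whole tissue, fewer cells of a type and less RNA per cell cannot be told apart.

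Haem oxygenases open the haem ring and release iron, carbon monoxide and biliverdin. Hmox1 is the inducible enzyme, which macrophages and glia raise when they take up haem, and Hmox2 is the constitutive enzyme of neurons. Biliverdin reductases turn biliverdin into bilirubin, ferritin stores the iron in a shell of heavy and light chains, and ferroportin, the product of Slc40a1, is the cellular iron exporter. Transferrin carries iron in plasma, and the transferrin receptor takes it into cells, in the brain first into endothelial cells.

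In vKO cortex 2 of the 4 haem breakdown genes, Cd163 and both ferritin chains were higher, and the transferrin receptor was lower. Of the 10 genes, 5 (Hmox1, Blvrb, Cd163, Fth1 and Ftl1) rose there by the authors' deposited table, while 8.15% of the 13594 tested entries were called higher. Tfrc was the 1 gene that fell, and 11.3% of tested entries were called lower. The other 4 (Hmox2, Blvra, Slc40a1 and Trf) were not called. The median ratio of the 10 genes was 0.44, beside 0.00 over all tested entries. In subcortex 2 genes rose by the authors' deposited table, Hmox1 and Cd163, where 0.451% of the 13735 tested entries were called higher. None of the 10 was lower there, at q under 0.05 or at an unadjusted p under 0.05, and 0.262% of tested entries were called lower. The median ratio in subcortex was 0.05, beside -0.00 over all tested entries. Hmox1 and Cd163 were thus the 2 genes called higher in both tissues. At a q-value under 0.01 neither remained in subcortex, where 0.00% of the tested entries pass. In cortex 4 genes were still called higher and 1 lower at that threshold, which 11.3% of the tested entries pass in either direction. The difference between the tissues was not tested, since the tables hold no value per replicate.

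**Figure D1:**
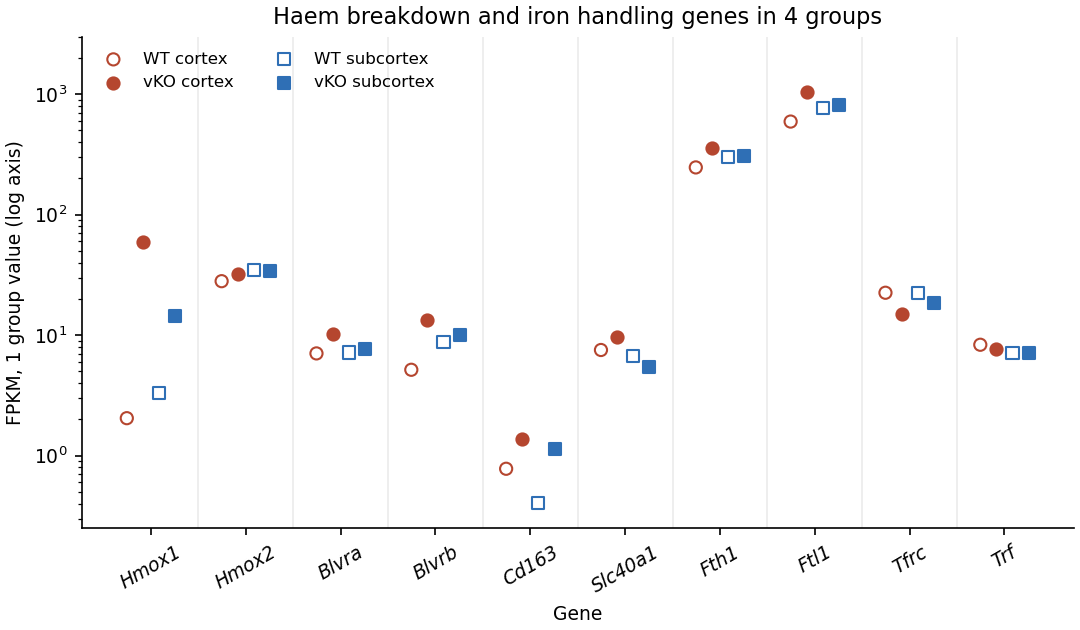
FPKM of the 10 genes on a log axis, 1 group value per point, with open symbols for WT and filled ones for vKO, circles for cortex and squares for subcortex. Hmox1 spans 2.04 to 59.7 FPKM, and the ferritin chains stand above the other genes in every group.

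The tested genes as a whole set limits on these counts. At an unadjusted p under 0.05, in either direction, stood 4367 of 13594 tested entries in cortex and 867 of 13735 in subcortex. All counts at that threshold are to be read against these. In cortex ratios fell with transcript length (Spearman correlation of -0.551 across 12937 genes, which are not independent replicates), and in the tenth of genes with the shortest transcripts, up to 1202 bases, 28.4% were called higher. In subcortex that correlation was 0.022. Each ratio is therefore also given where needed after subtracting the median of genes of like length and GC content, here called the trend removed. Transcript lengths of the 10 genes run from 968 bases for Ftl1 to 4890 for Tfrc. Reck itself was not called in either tissue (2.91 FPKM in WT and 3.23 in vKO for cortex, 2.37 and 3.49 for subcortex). Xist, the RNA of the inactive X of female cells, rose in vKO in both tissues by the authors' deposited table, from 0.0417 to 18.6 FPKM in cortex and from 0.0369 to 10.2 in subcortex, so sex composition and genotype cannot be told apart. Marker genes of cortical neurons (Neurod6, Tbr1 and Emx1 among them) summed to 252 FPKM in WT cortex and 15.1 in WT subcortex. Those of subcortical neurons (Tcf7l2 and Lhx9 among them) summed to 18.8 and 80.2 FPKM. Isl1 of the subcortical list went the other way, at 9.53 FPKM in WT cortex and 4.87 in WT subcortex. In vKO cortex the cortical sum was 312 FPKM, with 1 of 5 genes called higher and 1 lower, and the subcortical sum was 11.1, with 2 of 3 tested genes called lower. Those were Tcf7l2, at 4.71 and 1.07 FPKM, and Lhx9, at 3.76 and 2.29, in WT and vKO. Of all tested cortex entries, 8.15% were called higher and 11.3% lower. In vKO subcortex the sums were 16.4 and 75.7 FPKM. None of the 2 cortical and 5 subcortical markers tested there was called or had an unadjusted p under 0.05. The part of this difference between the cortex groups in the results below was not tested.

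Hmox1 (chromosome 8, 75093621 to 75100589 of mm10, 5 exons in its longest coding transcript) had the largest ratio of the 10 genes in both tissues. Cortex had 2.04 FPKM in the WT group and 59.7 in the vKO group, a 29.2-fold rise (q = 0.000806, authors' deposited table). Subcortex had 3.32 FPKM in the WT group and 14.5 in the vKO group, a 4.37-fold rise (q = 0.0104, authors' deposited table). The ratios of 4.32 and 1.84 were 4.04 and 1.80 with the trend removed. By ratio Hmox1 ranked 9 among all tested entries of cortex and 32 among those of subcortex. It went from the ninth level of the 10 genes in WT cortex to the third in vKO cortex, and from the ninth to the fifth in subcortex.

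Hmox2, the constitutive enzyme, had 28.1 (WT) and 32.3 (vKO) FPKM in cortex, and 34.8 and 34.2 in subcortex. It was not called in either tissue (q = 0.695 and q = 0.999, authors' deposited table). In WT tissue Hmox2 was the more abundant haem oxygenase, 13.7 times the Hmox1 level in cortex and 10.5 times in subcortex, on the FPKM scale. In vKO cortex the order was the reverse, with Hmox1 at 1.85 times the Hmox2 level. In vKO subcortex Hmox2 was still 2.36 times as high as Hmox1. The ratio of Hmox2 in cortex was 0.20 with the trend left in and -0.06 with the trend removed. Hmox2 shares its strand with the overlapping annotated gene Gm15859. Its entry runs to 4789935 on chromosome 16, past the annotated end at 4766742. The assignment of Hmox2 reads, and so its level beside Hmox1, is uncertain.

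The 2 biliverdin reductases act on the product of both oxygenases. Blvrb, the form that also reduces flavins, rose in cortex from 5.16 to 13.2 FPKM (2.57-fold; q = 0.000806, authors' deposited table). Its ratio of 1.21 was 0.88 with the trend removed. Blvra, the main enzyme of adult tissue, missed the threshold narrowly in cortex, with 7.05 (WT) and 10.2 (vKO) FPKM (q = 0.0566, authors' deposited table). Its ratio of 0.47 was 0.10 with the trend removed. Blvra was therefore the higher reductase in WT cortex, at 1.37 times Blvrb, and Blvrb the higher in vKO cortex, at 1.30 times Blvra. In subcortex neither was called: Blvra had 7.17 and 7.65 FPKM and Blvrb 8.72 and 10.1, in WT and vKO.

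Cd163 takes up complexes of haemoglobin with haptoglobin and marks macrophages at the borders of the brain. Its level was the lowest of the 10 genes in every group. In cortex it rose from 0.778 to 1.37 FPKM (1.77-fold; q = 0.0129, authors' deposited table). In subcortex it rose from 0.404 to 1.15 FPKM (2.83-fold; q = 0.0104, authors' deposited table). Because the levels are near the 1 FPKM that the ratio adds, the ratios were only 0.42 in cortex and 0.61 in subcortex, and in cortex the ratio became 0.82 with nothing added.

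**Figure D2:**
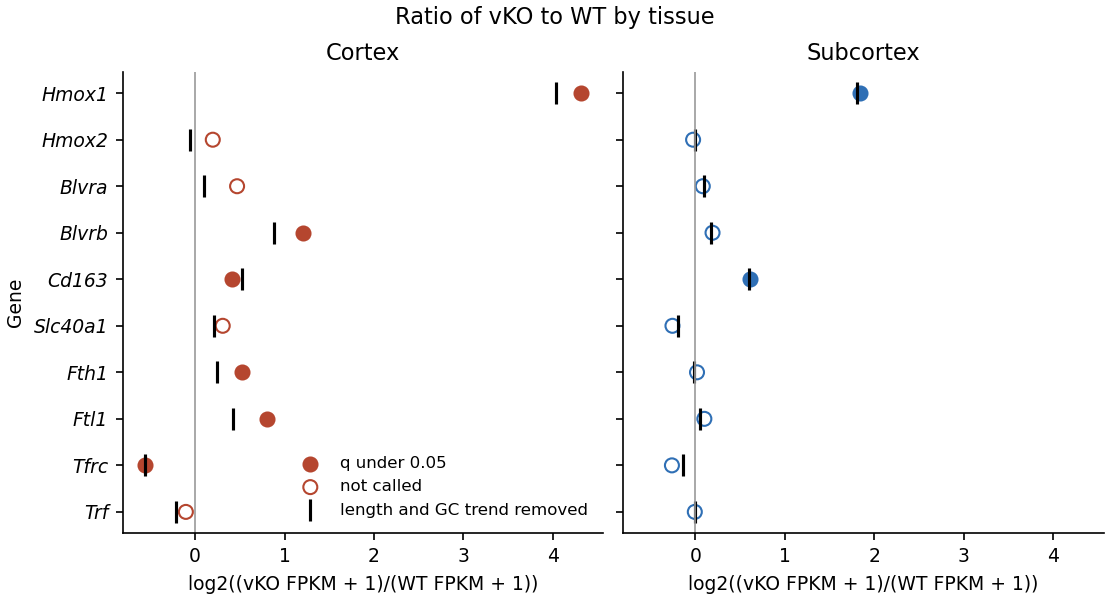
Ratio of vKO to WT for each gene in cortex (left) and subcortex (right), with filled points for genes called at a q-value under 0.05 in the authors' deposited table, open points for the others, and a black bar for the ratio with the trend of length and GC content removed. Hmox1 and Cd163 are filled on both sides, and the bars of the 2 ferritin chains in cortex lie to the left of their points.

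Iron handling genes are known for a shared RNA element, the iron-responsive element, a hairpin that iron regulatory proteins bind when iron is scarce. In a 5′ untranslated region (UTR) the bound protein blocks translation, and in the 3′ UTR of Tfrc it protects the RNA from decay. The element was searched on the RNA's own strand as a C, then 5 bases, the loop CAGTGN and 5 more bases. The 5 bases before the loop had to pair with the 5 after it (at most 1 pair of G with T), and the last loop base could not be G. The longest coding transcript of each gene in GENCODE M21, an annotation of the mm10 build, was used. Of the 10 genes, 3 had a match in the 5′ UTR, Fth1, Ftl1 and Slc40a1, and 1 in the 3′ UTR, Tfrc, with 4 matches. Over all genes with such a region, 0.0494% of 20232 5′ UTRs and 0.158% of 20898 3′ UTRs held a match. These regions differ in length. Hmox1, Hmox2, Blvra, Blvrb, Cd163 and Trf had no match, which says only that these letters are not in their UTRs. The matches are printed 5′ to 3′ with T for U, since they set the storage and export genes apart from the receptor by their place in the RNA, and the capitals mark the loop.
Fth1 5′ UTR, chr19:9982733-9982759, plus strand: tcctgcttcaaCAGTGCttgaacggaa
Ftl1 5′ UTR, chr7:45459780-45459806, minus strand: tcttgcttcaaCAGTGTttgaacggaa
Slc40a1 5′ UTR, chr1:45925466-45925492, minus strand: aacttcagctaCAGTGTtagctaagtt
Tfrc 3′ UTR, chr16:32631220-32631246, plus strand: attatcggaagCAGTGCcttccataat
Tfrc 3′ UTR, chr16:32631599-32631625, plus strand: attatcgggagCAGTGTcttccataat
Tfrc 3′ UTR, chr16:32631664-32631690, plus strand: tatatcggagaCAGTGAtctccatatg
Tfrc 3′ UTR, chr16:32631711-32631737, plus strand: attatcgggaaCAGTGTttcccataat

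The genes that carry this element did not move alike. In cortex the 2 ferritin chains rose, Tfrc fell and Slc40a1 was not called. In subcortex none of these 4 was called. RNA levels do not show the translation that the 5′ elements are known to control.

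Ftl1, the ferritin light chain (chromosome 7, 45457944 to 45459884), was the most abundant of the 10 genes in every group. It rose in cortex from 593 FPKM in WT to 1034 in vKO (1.74-fold; q = 0.000806, authors' deposited table). It was not called in subcortex, where the groups had 764 and 818 FPKM (q = 0.999, authors' deposited table). Fth1, the heavy chain that oxidises iron for storage (chromosome 19, 9980598 to 9985098), came next in level in every group. It rose in cortex from 247 to 355 FPKM (1.44-fold; q = 0.0040, authors' deposited table). In subcortex its 2 groups had 301 and 305 FPKM (q = 0.999, authors' deposited table). Light over heavy chain, on the FPKM scale, was 2.40 in WT and 2.91 in vKO cortex, and 2.54 and 2.69 in subcortex.

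Ferritin transcripts are short, and the trend of cortex ratios with length bears on them. With the trend removed the cortex ratio of Ftl1 went from 0.80 to 0.43 and that of Fth1 from 0.52 to 0.24. The part of this trend in their calls was not tested. Ftl1 also has 7 annotated copies that match it over at least 300 bases at 90% identity or more, and Fth1 has 1. None of these copies has an entry of its own in the tables, so the assignment of reads to both chains is uncertain.

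**Figure D3:**
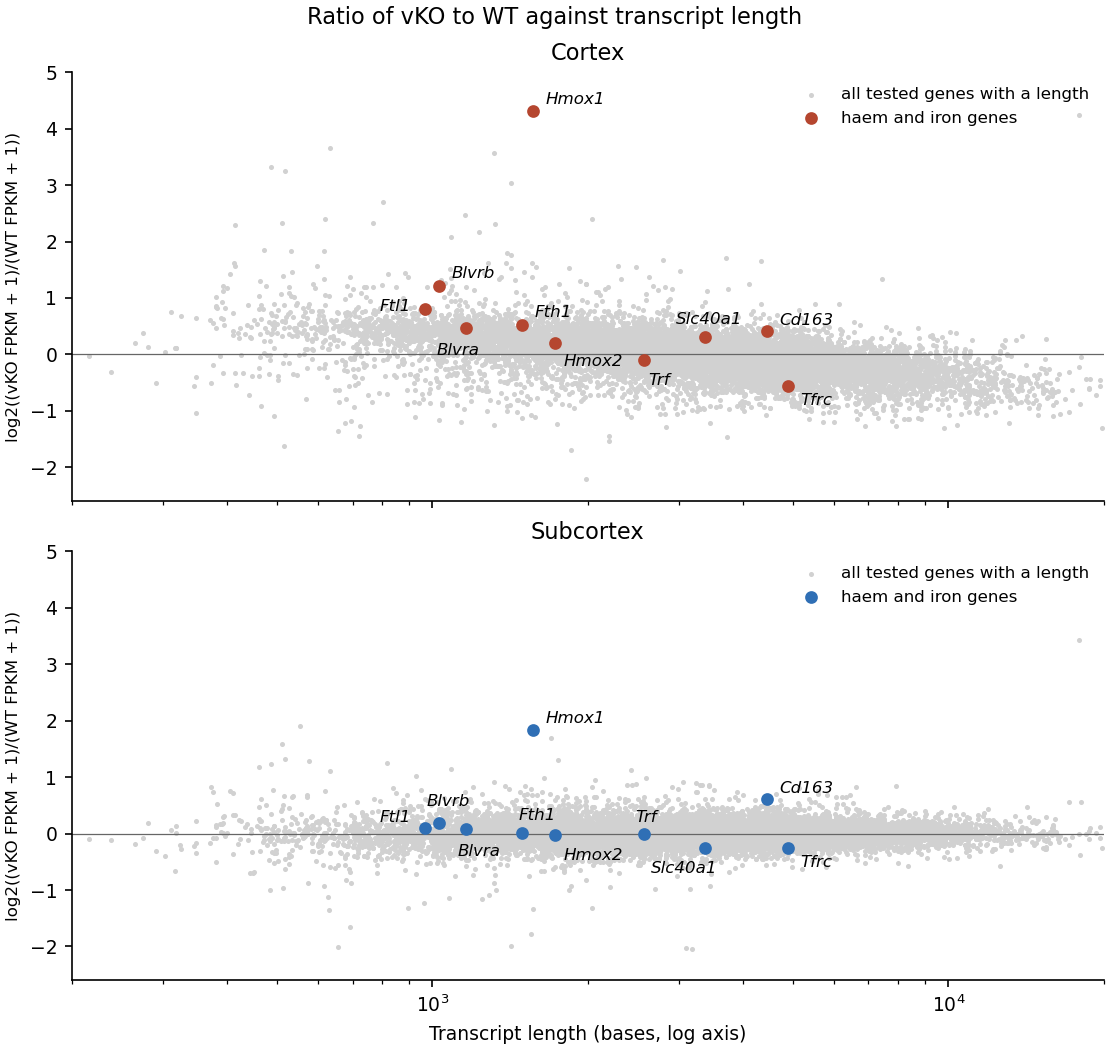
Ratio of vKO to WT against transcript length on a log axis, for all tested genes with a length (grey) and the 10 haem and iron genes (coloured), in cortex above and subcortex below. Beyond the axes lie 165 genes of cortex and 136 of subcortex, and in cortex Ftl1, Blvrb, Blvra and Fth1 lie at the short end, where the grey cloud is above 0.

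Slc40a1, which encodes ferroportin (chromosome 1, 45908068 to 45926523), was not called in either tissue. Its WT and vKO levels were 7.53 and 9.57 FPKM in cortex (q = 0.13, authors' deposited table) and 6.75 and 5.49 in subcortex (q = 0.947, authors' deposited table). The ratios were thus of opposite sign, 0.31 and -0.26, with neither called. Trf, transferrin, which in brain is made by oligodendrocytes and choroid plexus, had 8.32 and 7.68 FPKM in cortex and 7.10 and 7.06 in subcortex, and was not called. Of 8 oligodendrocyte lineage genes, 7 were tested in cortex and 8 in subcortex, and of 8 choroid plexus genes, 6 and 7. None of those tested was called in either tissue by the authors' deposited table. At an unadjusted p under 0.05, 2 oligodendrocyte genes were higher in subcortex, and of the choroid plexus genes 1 was lower in cortex and 3 were higher in subcortex. Trf shares its strand with the overlapping annotated gene Gm20425, which has no entry of its own in the tables, so the assignment of Trf reads is uncertain.

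Tfrc (chromosome 16, 32608920 to 32632794) fell in cortex from 22.5 to 14.9 FPKM (q = 0.00144, authors' deposited table). Its ratio was -0.56, and -0.56 with the trend removed. The subcortex groups had 22.5 (WT) and 18.6 (vKO) FPKM, a ratio of -0.26 that was not called (q = 0.944, authors' deposited table). Brain endothelium is a site of transferrin receptor in the brain. Of its 8 markers, 5 were lower and 0 higher in cortex by the authors' deposited table, beside 11.3% and 8.15% of all tested entries. The 5 lower markers were Cldn5, at 46.8 and 24.6 FPKM in WT and vKO, Kdr, Slco1c1, Mfsd2a and Flt1. With the trend removed the ratio of Flt1 went from -0.58 to -0.12 and that of Kdr from -0.93 to -0.69. The ratios of Cldn5, Slco1c1 and Mfsd2a became more negative, at -1.08, -1.14 and -0.85. Not all endothelial markers fell: Cdh5, at 6.89 and 6.80 FPKM, and Pecam1, at 6.49 and 8.47, were not called. The summed level of the 8 went from 116 to 73.1 FPKM. At an unadjusted p under 0.05, 6 were lower and 1 higher. In subcortex 3 of the 8 rose and 1 fell, beside 0.451% and 0.262% of all tested entries. Their sum there was 93.1 FPKM in WT and 94.8 in vKO. None of the 8 was at 0 in both groups. Tfrc is high in immature red cells too, whose markers were higher in vKO cortex. The part of either cell type in the fall of Tfrc was not tested.

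Levels across tissues can be set side by side only with care, since each table may have been scaled on its own; over 13168 entries tested in both, the median of WT subcortex over WT cortex was 1.04. Ranked by FPKM in WT cortex, Ftl1 and Fth1 were followed by Hmox2 and Tfrc, then by Trf, Slc40a1, Blvra and Blvrb between 8.32 and 5.16 FPKM, then by Hmox1 and Cd163. The order among the 4 genes of the middle group rests on single group values, and which neighbours differ beyond replicate spread is unknown. Subcortex had the same first 4 genes in the same order. In WT mice Hmox1 stood 1.62 times and Blvrb 1.69 times as high in subcortex as in cortex, and Cd163 1.92 times as high in cortex. In vKO mice Hmox1 stood 4.12 times as high in cortex as in subcortex.

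Markers of blood and of macrophages moved with these genes in cortex. Counts called here are to be read against 8.15% higher and 11.3% lower of all tested entries in cortex, and 0.451% and 0.262% in subcortex. By the q-values of the authors' deposited table, 3 of 6 erythroid entries were higher and 0 lower, and the list's summed level went from 364 to 6041 FPKM. Most of that sum is globin: the joint entry of Hbb-b1 and Hbb-bs alone had 233 and 4173 FPKM. In subcortex none of the 6 erythroid entries was called, none had an unadjusted p under 0.05, and the sum was 616 and 743 FPKM. Hemgn, a nuclear protein of red cell precursors, was listed at 0 in WT in both tissues. In vKO it had only 0.206 FPKM in cortex and 0.0355 in subcortex, and it was tested in neither. Of 10 microglial genes 7 rose and 0 fell in cortex, and the sum went from 65.8 to 147 FPKM, while in subcortex none of 9 tested was called, 1 was higher at an unadjusted p under 0.05, and the sum was 81.3 and 122 FPKM. Of 9 macrophage genes 6 rose in cortex, with a sum of 32.2 and 97.6 FPKM. Lyz2 makes up most of that change, from 3.14 to 47.9 FPKM, and without it 5 of 8 rose and the sum was 29.1 and 49.7. Of 8 macrophage genes tested in subcortex 1 rose, Lyz2, with a sum of 33.7 and 37.7 FPKM, which was 28.8 and 27.6 without it. No macrophage or microglial gene was at 0 in both groups. The part of these cells in the rise of Hmox1, Blvrb, Cd163 and ferritin was not tested.

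Other markers of border macrophages did not all move with Cd163. Mrc1, the mannose receptor of border macrophages, had 4.87 and 5.39 FPKM in cortex and 3.46 and 3.61 in subcortex, and Lyve1, a hyaluronan receptor of the same cells, had 2.17 and 2.40 and then 1.76 and 1.79. Neither was called in either tissue. Pf4, a chemokine of the same cells and of platelets, rose in cortex from 7.04 to 18.1 FPKM (q = 0.000806, authors' deposited table) and had 10.5 FPKM in both groups of subcortex. The lysozyme gene Lyz2 rose in subcortex from 4.86 to 10.1 FPKM (q = 0.0104, authors' deposited table).

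The 5 entries nearest to Hmox1 over the 4 group values, by distance of mean-centred log2(FPKM + 1) among 13165 entries, were Hbb-y, S100a8, Lyz2, S100a9 and Hba-a2. They encode an embryonic globin, 2 calcium-binding proteins of neutrophils, a lysozyme and an alpha-globin. The distance was 0.722 for Hbb-y, 0.828 for S100a8 and 0.849 for Lyz2, on only 4 values a gene. Hbb-y had 0.0607 and 12.4 FPKM in cortex and 0.36 and 1.93 in subcortex, and was called in neither tissue. S100a8 had 0.941 and 18.4 FPKM in cortex and 1.32 and 4.47 in subcortex, again uncalled. Of the 5, Lyz2 was called higher in both tissues and S100a9 in cortex. The Hba-a2 entry, at 17.5 and 68.2 FPKM in subcortex, shares its locus with a joint entry of Hba-a1 and Hba-a2. That joint entry had 98.9 and 74.5 FPKM there, so the split of reads between them is uncertain. Neither entry was called in either tissue.

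Other genes of haem and iron metabolism, in 5 lists of 60 genes, were called in both directions in cortex. By the q-values of the authors' deposited table, 9 of 50 tested were higher and 8 lower, to be read against 8.15% and 11.3% of all tested entries, and the median ratio was 0.10. In subcortex 1 of 51 tested rose and 0 fell, beside 0.451% and 0.262% of all tested entries. At an unadjusted p under 0.05, 5 were higher and 0 lower there, and the median was 0.04.

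Haem synthesis genes had 3 risen and 1 fallen of 9 in cortex by the authors' deposited table, with a median of 0.11. Alas2, the erythroid form of the first enzyme and the 1 other gene of the lists with the hairpin motif in its 5′ UTR, rose from 5.70 to 34.6 FPKM. Fech, which inserts iron into the ring, rose from 9.83 to 15.0. Alas1, the form of the first enzyme in other cells, fell from 14.1 to 10.1 FPKM. In subcortex none of the 9 was called, and Urod and Alas1, the most abundant, had 13.4 and 18.0 and 14.3 and 12.6 FPKM.

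Genes of haem uptake and transport had 2 risen and 2 fallen of 8 tested in cortex by the authors' deposited table, with a median of 0.04. Hebp1, a haem-binding protein, rose from 3.27 to 9.30 FPKM and the exporter Abcg2, also of the endothelial barrier, from 8.97 to 12.6. Lrp1, the receptor for haem bound to haemopexin among many ligands, fell from 53.4 to 27.3 FPKM (ratio -0.94, and -0.39 with the trend removed). Flvcr2, entered as Mfsd7c, a transporter of brain endothelium, fell from 1.69 to 0.817 FPKM. In subcortex none of the 8 was called or had an unadjusted p under 0.05, with Lrp1 at 34.7 and 40.6 FPKM and Pgrmc1, a haem-binding membrane protein, at 237 and 246.

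**Figure D4:**
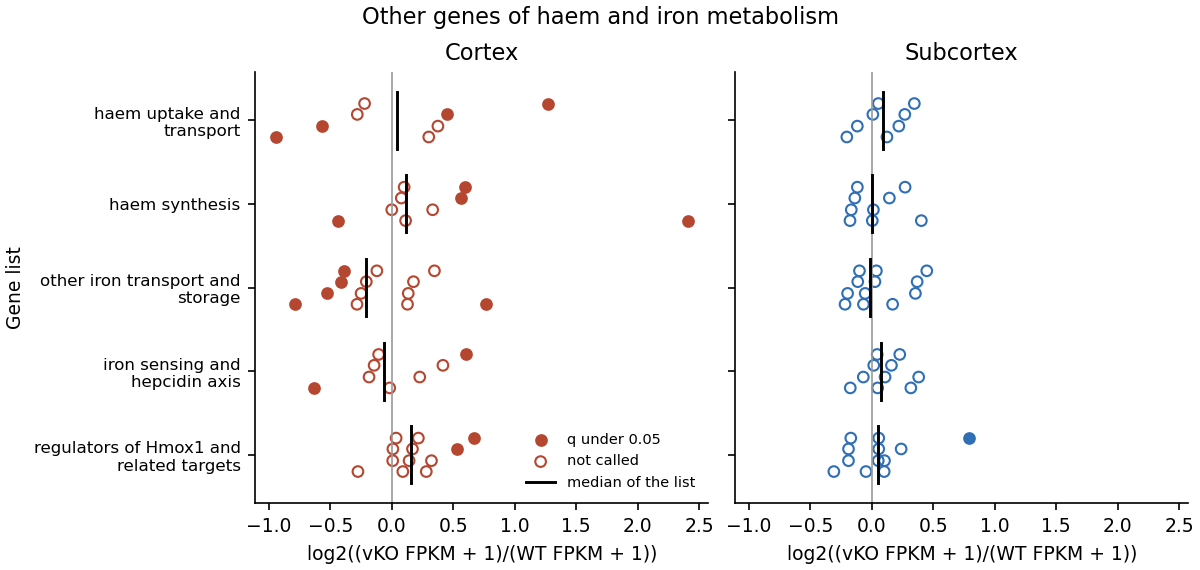
Ratio of vKO to WT for the tested genes of 5 further lists in cortex (left) and subcortex (right), with filled points for genes called in the authors' deposited table, open points for the others and a black line at each list's median. In cortex filled points lie on both sides of 0, and in subcortex the 1 filled point is Nqo1.

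Other iron transport and storage genes had 1 risen and 4 fallen of 13 tested in cortex by the authors' deposited table, with a median of -0.21. Slc25a37, mitoferrin of red cell precursors, rose from 1.41 to 3.10 FPKM. Pcbp2, an RNA-binding protein that also delivers iron to ferritin, fell from 47.4 to 27.1 FPKM. Slc39a8, a metal importer, fell from 4.88 to 3.09 and Steap3, the iron reductase of endosomes, from 0.931 to 0.451. In subcortex none of 12 tested was called and 2 were higher at an unadjusted p under 0.05. Ncoa4, the receptor that sends ferritin to autophagy, had 33.5 and 31.9 FPKM there, and the iron chaperone Pcbp1 38.4 and 39.2.

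Genes of iron sensing had 1 risen and 1 fallen of 8 tested in cortex by the authors' deposited table, with a median of -0.06. Ireb2, iron regulatory protein 2, which binds the hairpin shown above, fell from 38.4 to 24.3 FPKM (ratio -0.64, and -0.60 with the trend removed). Hfe, a partner of the transferrin receptor, rose from 1.01 to 2.06 FPKM. In subcortex none of 10 tested was called, 1 was higher at an unadjusted p under 0.05, and Ireb2 had 22.7 and 24.6 FPKM. Fbxl5, the iron sensor that marks Ireb2 protein for destruction, had 47.3 and 45.1 there.

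Of 12 tested regulators of Hmox1 and targets that share them, 2 rose and 0 fell in cortex by the authors' deposited table. The median was 0.16. At an unadjusted p under 0.05, 4 were higher and 0 lower, where 4367 of all 13594 tested cortex entries passed in either direction. Srxn1, a sulfiredoxin of the NRF2 pathway, rose from 5.36 to 8.18 FPKM, and Nqo1, a quinone reductase of the same pathway, from 1.96 to 3.71. In subcortex Nqo1 was the 1 gene of all 5 lists that rose, from 3.26 to 6.38 FPKM (q = 0.0264, authors' deposited table). Nqo1 was thus called higher in both tissues, as were Hmox1 and Cd163.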

How the data were processed

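The submitters' processing notes name mm10, HISAT2 2.0.1, Cufflinks 2.2.1 and Cuffdiff without a version. Per the labels' protocols, total RNA was made into stranded libraries. The annotation and strand setting the authors used are not given in the sources used here. The FPKM values, the p-values and q-values, and the test statistic, a score not used further, are the authors' deposited group values and tests per the file headers; the letters W and M in their group names were taken as the 2 genotypes, WT and vKO. Benjamini-Hochberg values recomputed over tested entries came within 5.2e-07 of the deposited q-values, and the lowest deposited p-value was 5e-05. Ratios were computed from FPKM with 1 added, in Python 3.11.15 with pandas 2.3.3. The trend was the median ratio in 100 cells of transcript length and GC content (GENCODE M21, 95.2% of tested entries had both), tested on simulated data. Copies were searched with blastn 2.17.0. The genes, the 5 lists and the markers were chosen with earlier results of these data known, and list genes named are up to 4 called per tissue with the lowest q-value, or else the 2 most abundant. The markers Mrc1, Lyve1, Pf4 and Lyz2 were picked after their values were seen. Of the listed genes, 3 were found by an older symbol. Depth is unknown, and no test over samples was made. Some genes of the lists are not reported here by name.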

Additional observations from a re-analysis of the deposited data

How the results depend on the processing

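No paired analysis was possible because the tables hold 1 value per group, and for the same reason no replicate could be left out. At a q-value under 0.01 in the authors' deposited tables, the 2 genes called higher in subcortex became 0, and the 1 list gene called higher there became 0. No entry of the whole subcortex table passes that threshold, since its lowest q-value is 0.0104. In cortex the list genes called lower went from 8 to 5, because the stricter threshold admits fewer genes. Counts stayed within 1.5 times of those reported with a minimum of 1.5-fold, a minimum of 1 FPKM, centring on the median of all tested entries or the trend removed, as did the median ratio of the 10 genes with a pseudocount of 0.1 or none and with centring. No called gene among the 10 changed sign under any of them. Removing the trend moved every median by more: that of the 10 genes went from 0.44 to 0.23 in cortex and from 0.05 to 0.02 in subcortex, and that of the list genes from 0.10 to 0.02 and from 0.04 to 0.01. The macrophage sum without Lyz2 was added after the data were seen. Calls could not be made again after removing the trend.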
